A study of Caenorhabditis elegans with 2 samples.

Results

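The regions described here are the X chromosome peaks of the eGFP-tagged product of C34F6.9 in Caenorhabditis elegans. They were taken as every row of the optimal peak list, in the ce11 build, whose chromosome is X. There were 977 of them among 5692 peaks in all, which leaves 4715 on the 5 autosomes. The position of a peak is its summit, the base of highest enrichment that the peak caller gave. The choice used the chromosome name only, so neither signal, place in genes nor sequence entered it.

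The study mapped by chromatin immunoprecipitation and sequencing (ChIP-seq) where the tagged protein lay on the genome. All material came from a single group, entire L2 (second-stage) larvae, recorded as a pool of males and females. The sexes of this worm are hermaphrodites and males, and the number of males is unknown here. Every animal was of strain OP324, which carries the integrated transgene wgIs324 in an unc-119(ed3) mutant background, per the labels. The group had 2 biological replicates, and there was no untagged or untreated group, so nothing was compared between conditions. An integrated transgene adds copies of the tagged gene to the genome, and whole larvae mix all tissues, so a peak can come from few or many cell types.

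The worm's X chromosome is present as a pair in hermaphrodites and as a single copy in males. In hermaphrodites the dosage compensation complex, which contains condensin, loads onto X at recruitment sites and lowers transcription along the chromosome. Those sites hold copies of a short sequence, the MEX element. The X is also known for few operons, few germline-expressed genes and many tRNA genes, which RNA polymerase III transcribes from promoter boxes inside the gene.

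Sequences are shown for 8 of the strongest X peaks, picked after their letters were seen. The first 6 hold a part of the MEX element, and the others are an intergenic peak without it and a promoter peak. The non-promoter peaks of ranks 7, 36 and 48, also without it, are not shown. The letters of rank 48 do hold CGAAGGG, which differs from the MEX part CGCAGGG by a letter. Copies of CGAAGGG are not marked below. Each is 151 bases of the plus strand centred on the summit, from the RefSeq copy of WBcel235 (ce11), and the rank is that in the whole list by the authors' signal. Capitals in the first 6 mark CGCAGGG, a part of the MEX element, on either strand (CCCTGCG when read on the plus strand); in the last they mark GAGAG on either strand.
Rank 10, chrX:11094102-11094252, intergenic: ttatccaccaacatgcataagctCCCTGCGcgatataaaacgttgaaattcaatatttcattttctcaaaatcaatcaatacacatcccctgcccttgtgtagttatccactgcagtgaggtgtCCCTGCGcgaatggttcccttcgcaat
Rank 45, chrX:2997050-2997200, intron: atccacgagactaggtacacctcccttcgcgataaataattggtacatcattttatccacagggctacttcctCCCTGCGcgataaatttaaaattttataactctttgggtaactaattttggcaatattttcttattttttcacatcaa
Rank 55, chrX:806591-806741, after a 3′ end: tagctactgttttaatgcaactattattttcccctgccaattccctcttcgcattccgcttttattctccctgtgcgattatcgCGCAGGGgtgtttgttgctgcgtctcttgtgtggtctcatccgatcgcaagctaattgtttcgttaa
Rank 61, chrX:14525846-14525996, intergenic: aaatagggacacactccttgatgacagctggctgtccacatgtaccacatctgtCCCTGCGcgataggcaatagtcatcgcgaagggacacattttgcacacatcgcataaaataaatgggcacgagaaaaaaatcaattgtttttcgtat
Rank 63, chrX:4209183-4209333, intergenic: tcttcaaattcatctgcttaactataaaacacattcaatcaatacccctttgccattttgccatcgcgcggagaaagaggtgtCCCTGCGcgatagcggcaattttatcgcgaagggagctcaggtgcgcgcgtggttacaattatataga
Rank 66, chrX:16682038-16682188, intergenic: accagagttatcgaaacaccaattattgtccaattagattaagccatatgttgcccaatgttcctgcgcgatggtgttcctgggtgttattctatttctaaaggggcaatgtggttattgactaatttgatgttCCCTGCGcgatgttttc
Rank 23, chrX:13700746-13700896, intergenic, with no copy: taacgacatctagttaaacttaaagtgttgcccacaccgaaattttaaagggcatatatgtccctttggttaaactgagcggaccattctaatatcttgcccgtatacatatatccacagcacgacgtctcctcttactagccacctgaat
Rank 11, chrX:7823192-7823342, promoter of eef-1A.2: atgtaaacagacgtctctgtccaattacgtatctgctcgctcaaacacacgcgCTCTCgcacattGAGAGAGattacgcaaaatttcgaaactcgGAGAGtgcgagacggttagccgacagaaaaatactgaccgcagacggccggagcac

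The strongest X peaks often held the MEX part. CGCAGGG lay within 100 bp of the summit, on either strand, in 31 of the 977 X peaks (3.17%, 95% Wilson interval 2.24 to 4.47), against 61 of 4715 autosomal peaks (1.29%, 1.01 to 1.66; 0.789% to 1.65% on single autosomes). The intervals here and below cover counting error only. Windows of the same 201 bp centred 400 bp to either side held it in 0.358% of cases on X and 0.276% on the autosomes, and 0.327% of all such windows along X did. Among the 20 X peaks with the highest signal 8 held it, against 1 of the 20 highest autosomal peaks. Among the highest 50 it was 13 against 1, and among the highest 100 it was 14 against 1. From rank 501 on among the X peaks the share was 1.47%, close to the 1.26% of autosomal peaks from rank 501 on.

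**Figure D1:**
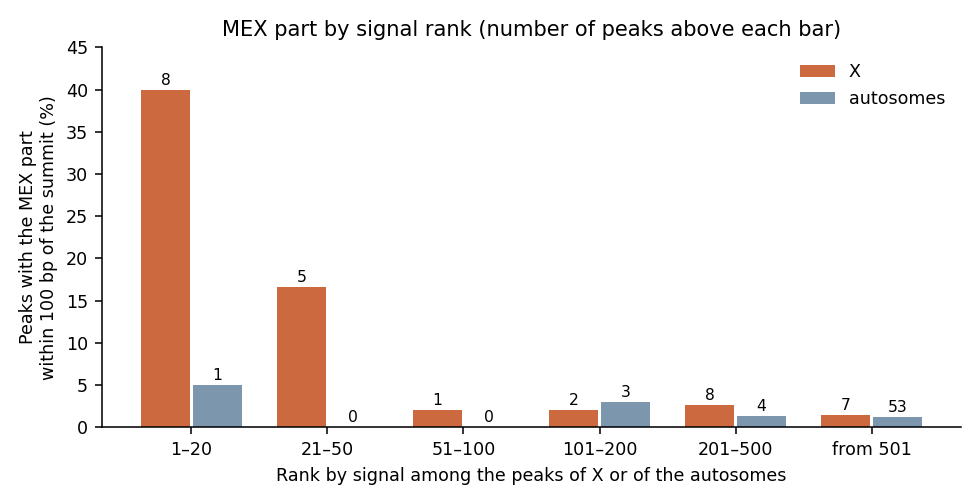
Share of peaks, in percent, with CGCAGGG within 100 bp of the summit, for groups of peaks by signal rank on X and on the autosomes, with the number of peaks above each bar. The bars of X stood at 40.0% for ranks 1 to 20 and 16.7% for ranks 21 to 50, and from rank 51 on both chromosome classes lay at 3% or lower.

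The 13 X peaks with the MEX part among the highest 50 all lay outside the promoters of protein-coding genes. The highest of them, rank 10 of all peaks, held 2 copies and lay between coding genes, 4009 bp from the nearest coding 5′ end, that of W02H3.3. It ranked 15 in replicate 1 and 12 in replicate 2. The intronic peak of rank 45 had a copy 1 bp from its summit and ranked 68 and 31 in the replicates. Rank 167 lay 4873 bp upstream of xol-1, the switch gene that reads the X signal in sex determination, held 2 copies and ranked 238 and 94. Of the 31 peaks 23 were not promoter peaks, 4 held at least 2 copies, and the copy nearest the summit lay a median of 30 bp from it.

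In signal, the 31 peaks had a median percentile of 74.0 within the list, where 100 is the strongest peak, against 41.3 for the other X peaks. On the autosomes the same medians were 53.5 and 51.6. In the list of each replicate alone, cut at 5692 peaks, 31 X peaks held the sequence, a mean of 3.15% ± 0.0678 (SD, n = 2), with 7 and 8 of them among the highest 20 X peaks. Of the 30 listed in both full replicate lists, 23 ranked higher in replicate 2 than in replicate 1, as did 451 of 857 other X peaks. The sequence itself was about as dense on X as elsewhere, with 301 copies on X (17.0 per Mb) and 1329 on the autosomes (16.1 per Mb). A peak summit lay within 100 bp of 11.6% of the X copies and of 4.67% of the autosomal copies. The 14 such peaks among the highest 100 were spread along the chromosome from 806666 to 16682113, with 0.538 to 2.28 Mb between neighbours. A match of these letters is a description of the sequence, and binding by the dosage compensation complex was not analysed here.

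**Figure D2:**
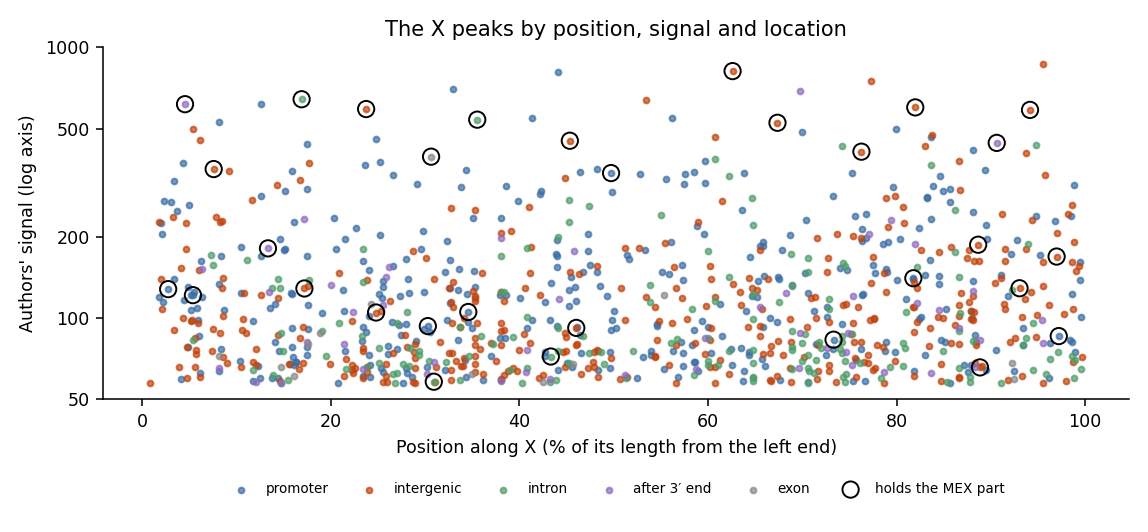
Each X peak by its position, in percent of the length of X from the left end, and its signal on a log axis, coloured by location class; rings mark the 31 peaks with CGCAGGG within 100 bp of the summit. Rings recur along the whole chromosome, and 14 of the 31 are among the 100 strongest X peaks.

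Of the 30 X peaks with the highest signal, those at promoters included genes of translation, RNA control and membrane traffic. A promoter peak here has its summit within 500 bp of the 5′ end of a protein-coding transcript. The strongest was at eef-1A.2, which encodes a translation elongation factor, with a signal of 809 (rank 11; ranks 13 and 16 in the replicates) and its summit 387 bp upstream. The promoter of puf-9, a Pumilio-family RNA-binding protein, followed at rank 32 (27 and 47), with the summit 287 bp upstream. The promoter of rpl-11.2, which encodes a protein of the large ribosomal subunit, had rank 53 (46 and 84), with the summit 367 bp upstream and that of the lincRNA linc-78 130 bp away. All 3 ranked a little higher in replicate 1 than in replicate 2.

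The next were epg-7, an autophagy scaffold, at rank 83, ZC506.1 at rank 86, the zinc finger gene zfp-3 at rank 94, sym-4 at rank 117 and F17E5.2 at rank 128. Then came 3 genes of membrane traffic. They were epn-1, which encodes the endocytic adaptor epsin, at rank 140, dpy-23, a subunit of the clathrin adaptor AP-2, at rank 153, and sec-3, a subunit of the exocyst, at rank 182. Every one of these summits lay upstream of its 5′ end, by 167 bp at sec-3 to 449 bp at epn-1.

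The other peaks of the highest 30 lay farther from coding 5′ ends. The strongest X peak of all, rank 7 with a signal of 869, lay 5778 bp from the 5′ end of C30E1.4 and within 500 bp of the non-coding RNA gene C30E1.9, and it ranked 10 and 6 in the replicates. It had no copy of the MEX part, nor had the intergenic peaks of ranks 23 (6086 bp from K02D3.1), 48 (2515 bp from ZK899.6) and 118 (750 bp from the sphingomyelin synthase gene sms-2), or the peak of rank 36 after the 3′ end of a gene, 1744 bp from the 5′ end of F19H6.5. Peaks with the MEX part lay nearest to gtr-1 (rank 55), nspc-17 (61), F20B6.9 (63), F22H10.2 (66), Y41G9A.17 (45), cest-16 (88), F55G7.5 (97) and T27A8.7 (177). The rest, with no copy, lay nearest to egrh-1, an EGR-type zinc finger gene (rank 133), sma-9, a zinc finger gene of BMP signalling (138), pigx-1 (162) and, in an intron, aak-2, a catalytic subunit of AMP-activated kinase (185).

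Over all 977 peaks, X differed from each autosome in where its peaks lay. Promoter peaks numbered 374 (38.3%, 35.3 to 41.4), against 53.3% on the autosomes, whose values ran from 51.9% to 55.3%. Intergenic peaks also numbered 374 (38.3%), against 25.1% on the autosomes (24.0% to 26.9%). This class ignores non-coding genes, so its summits can lie inside them, as some at tRNA genes did. The X promoter share was 39.0% in replicate 1 and 38.2% in replicate 2, a mean of 38.6% ± 0.544 (SD, n = 2), so the distance to the lowest autosome was larger than the spread of the replicates. Introns held 164 X peaks (16.8%; autosomes 15.6%), the 500 bp after a 3′ end held 52 (5.32%; autosomes 4.56%) and exons held 13 (1.33%; autosomes 1.44%). The promoter share of X stayed below the lowest autosome with windows of 250 bp (25.1% against 37.6%) and 1000 bp (52.8% against 62.6%), and with 5′ ends of every gene biotype (59.0% against 61.1%).

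**Figure D3:**
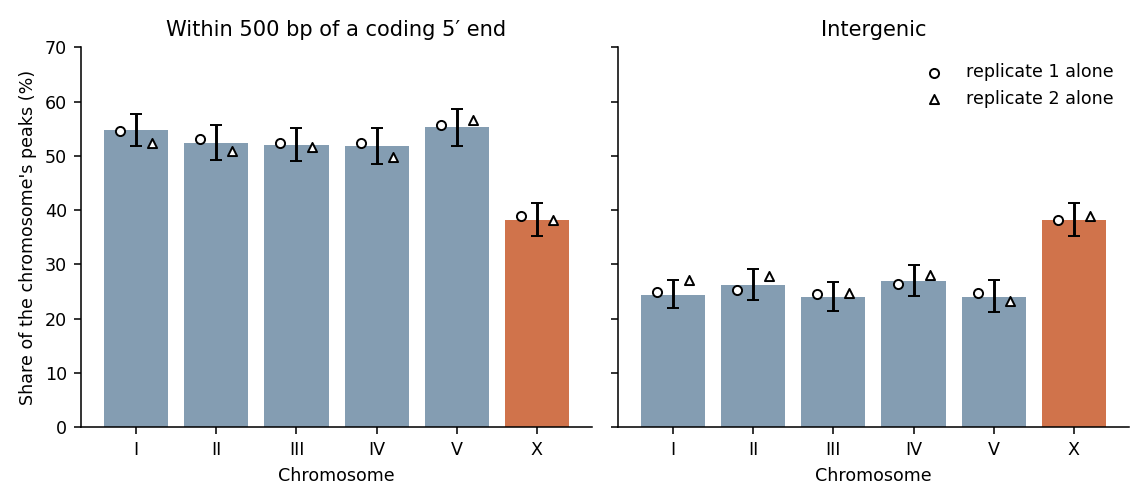
Share of each chromosome's peaks, in percent, that lay within 500 bp of a coding 5′ end or in the intergenic class, which ignores non-coding genes. Bars are the optimal list with 95% Wilson intervals, circles and triangles replicates 1 and 2 alone. The X bar stands at 38.3% in both panels, below every autosome for promoters and above every autosome for intergenic peaks.

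The bases available to each class differ between the chromosomes as well. Promoter bases made up 18.8% of X and 24.0% of the autosomes, and intergenic bases 33.5% and 23.9%. Per Mb of promoter bases X had 113 peaks and the autosomes 127, with single autosomes from 80.6 to 181. Per Mb of intergenic bases X had 63.0 peaks and the autosomes 59.9. Intergenic stretches, those between coding genes, had a median length of 1792.5 bp on X and 818 bp on the autosomes. How much of the difference in shares goes with these lengths was not tested.

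Distances within the classes differed at promoters. The median X promoter summit lay 179 bp upstream of the 5′ end (signed median −179 bp), against −147 bp on the autosomes, where single chromosomes ran from −154 to −140 bp. Of X promoter peaks 26 (6.95%, 4.79 to 9.99) lay within 500 bp of divergent 5′ ends, one on each strand, against 624 (24.8%) on the autosomes. Divergent neighbours with 5′ ends at most 1000 bp apart made up 5.86% of X coding genes and 19.6% of autosomal ones. Intergenic summits lay a median of 2148.5 bp from a coding 5′ end on X and 1870 bp on the autosomes, inside the 1641 to 2195 bp of single autosomes. Of all X peaks 285 (29.2%) lay more than 2000 bp from a coding 5′ end, against 19.0% of autosomal peaks (17.7% to 22.5% on single autosomes).

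In number, X was not set apart. It held 17.2% of the peaks (16.2 to 18.2), 17.7% of the genome's length and 13.7% of its protein-coding genes. That came to 55.1 peaks per Mb against 57.1 on the autosomes, within their range of 39.0 to 74.7, and to 358 peaks per 1000 coding genes, within the autosomes' 163 to 390. The replicates gave 54.7 and 56.4 per Mb.

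By the authors' signal, X peaks ranked lower than those of any autosome, although X was well represented at the very top. The median X peak stood at percentile 42.0 of the list, with 42.3 and 42.7 in the replicates, against 51.6 for the autosomes (48.9 to 54.4). X peaks numbered 3 of the highest 20, 8 of the highest 50 and 18 of the highest 100, then 129 of the highest 1000 (12.9%, 11.0 to 15.1). Over 10 groups of equal size by signal, the X share was 14.0% in the highest, 10.7% in the next and 21.3% in the lowest. Among pooled regions below the list, ranks 5693 to 30000, X held 23.0%. Replicate 2 placed 21 X peaks among its highest 100 and replicate 1 placed 14.

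**Figure D4:**
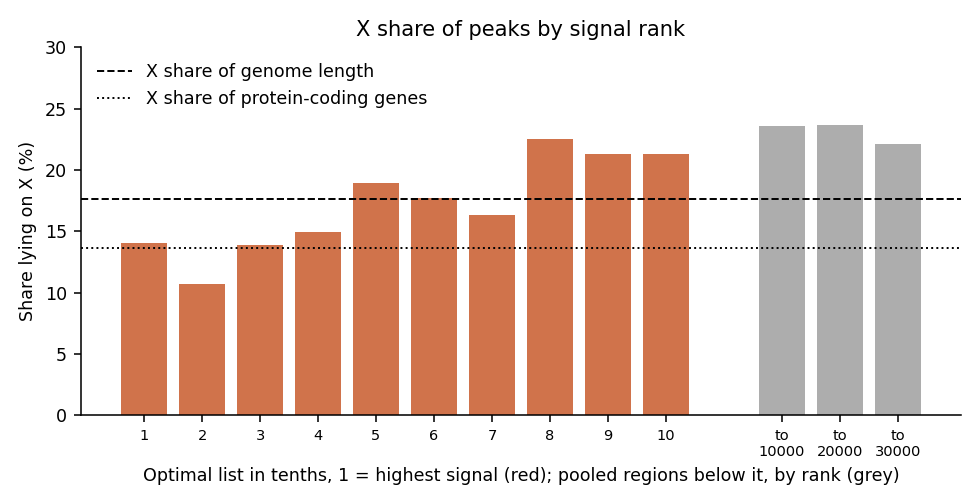
Share of peaks lying on X, in percent, for 10 groups of the optimal list from the highest signal (1) to the lowest (10) and for pooled regions of lower rank; lines mark the share of X in genome length (17.7%) and in protein-coding genes (13.7%). The share was lowest, 10.7%, in group 2 and lay between 21.3% and 22.5% in groups 8 to 10.

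The lower rank was also seen among promoter and intron peaks taken by themselves. The median percentile of promoter peaks was 53.8 on X and 61.0 on the autosomes, whose lowest was 58.7, and that of intron peaks was 26.8 on X and 36.4 on the autosomes. For intergenic peaks it was 40.8 on X and 43.0 on the autosomes, within their range of 38.3 to 48.1. The make-up of the top differed. Of the 20 highest X peaks 13 were not at promoters, 9 of them intergenic, whereas 5 of the 20 highest autosomal peaks were not. Among the highest 100 the counts were 45 on X and 31 on the autosomes. The depth behind these ranks is unknown, and the signal is the authors' value relative to a control library not analysed here.

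Over 3 parts of equal length X peaks were spread almost evenly, where autosomal peaks gathered in the middle part. From left to right, X held 305, 324 and 348 peaks. The middle part held 33.2% of X peaks, against 42.0% to 49.2% on the autosomes. Coding genes in these parts of X numbered 871, 976 and 884. On I, III, IV and V the middle part also held the most coding genes, but not on II. How far autosomal peaks follow the genes was not tested. On smaller scales the X peaks were uneven. The 17 full Mb of X held 40 to 73 peaks each, with a median of 56. Across these 17 bins the number of peaks and of coding genes had a Spearman's rho of 0.357 and the numbers of both replicates had 0.845, given as descriptions, since the bins share libraries. Neighbouring X summits lay a median of 8153 bp apart (quartiles 2540.5 and 23506.5 bp), within the autosomes' 7005 to 10462.5 bp.

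The densest 100 kb windows held 19, 19 and 18 peaks. The window X:6729191-6829190, with 14 coding genes, had 9 intergenic peaks and lay around atg-2, an autophagy gene, and mdl-1, which encodes a Mad-type bHLH factor. It was dense in both replicates, with 17 and 19 peaks. The window X:15555375-15655374 held nipi-3, rab-14, a small GTPase of membrane traffic, and dyn-1, which encodes dynamin, and 7 of its 17 coding genes had a peak. The window X:4137702-4237701 held vha-12, a subunit of the vacuolar proton pump, the adaptor gene nck-1, the kinase gene hpk-1 and rab-37, with rank 63 as its best peak.

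The widest stretches without a summit were 218467, 212164 and 177151 bp long. The first ran from 1627143, near fbxb-58, to 1845610, near T26C11.4, over 37 coding genes, among them F-box and T-box genes (fbxa-52, fbxa-53, fbxa-170, tbx-31 and tbx-32). The second ran from 3127857, near the spectrin gene spc-1, to 3340021, near F11D5.1, over 34 coding genes, among them the lipid-binding protein genes lbp-1, lbp-2 and lbp-3. Each replicate alone had 2 summits inside it. The last ran from 147018, near Y73B3A.11, to 324169, near M02E1.3, over 21 coding genes, and neither replicate had a summit there.

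At the level of genes, 378 of 2731 X coding genes (13.8%, 12.6 to 15.2) had a peak within 500 bp of a 5′ end. The background over all chromosomes was 17.0%, and the autosomes had 17.5%, with single autosomes from 10.6% to 25.5%, so X lay inside their range. In the replicates it was 14.0% ± 0.0259 (SD, n = 2). A peak says that the tagged protein was enriched nearby, and expression was not measured.

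Genes of membrane traffic were the list with the most X members called. Of all X coding genes 13.8% had a peak. Of 15 X genes for Rab proteins, coats and tethers 12 had a peak (80.0%, 54.8 to 93.0), against 36 of 79 on the autosomes (45.6%). The strongest were sec-3, described above, and sec-15, a further exocyst subunit, at rank 580, then sec-16A.2 at rank 2012 and rab-14 at rank 2251. The others had ranks from 2518 for vps-45 to 4520 for vps-52, which ranked 9416 in replicate 2. With windows of 250 and 1000 bp 7 and 13 of the 15 had a peak. The summit of rank 580 lay 284 bp upstream of sec-15, but 17 bp upstream of C28G1.2 and 114 bp upstream of a tRNA gene.

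Genes of metabolism and protein synthesis on X were few, and such genes were often called on the autosomes too. The share over all X coding genes was 13.8%. Of 6 respiratory chain genes 5 had a peak, against 30 of 45 on the autosomes (66.7%). Strongest were the ATP synthase genes asb-2 (rank 291) and asg-2 (502), the succinate dehydrogenase gene sdha-1 (332) and the complex III gene ucr-2.2 (547). All 3 translation factor genes had a peak, against 30 of 39 on the autosomes (76.9%). They were eef-1A.2 and the cap-binding proteins ife-2 (rank 1181) and ife-4 (1773). Of the 2 ribosomal protein genes on X only rpl-11.2 had a peak, against 67 of 78 on the autosomes. Of 5 chaperone genes 2 had a peak (40%, 11.8 to 76.9), against 35 of 60 on the autosomes (58.3%). They were hsp-3, an endoplasmic reticulum chaperone, at rank 340 and dnj-14 at rank 393. No proteasome gene lies on X.

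Among genes that control X itself, 2 of 6 on X had a peak. They were ceh-39, a homeobox X signal element, at rank 1439 and sdc-1, which acts in sex determination and dosage compensation, at rank 2630. On the autosomes 3 of 9 genes of that list had a peak.

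Among regulators of transcription, homeobox genes had 3 of 27 (11.1%, 3.85 to 28.1; autosomes 10.8%), near the 13.8% of all X coding genes. They were ceh-39, ceh-93 (rank 2795) and ceh-89 (4365). Nuclear hormone receptor genes had 6 of 27 (22.2%, 10.6 to 40.8; autosomes 10.5%), an interval that holds the share of all X genes, led by nhr-1 (rank 488), nhr-40 (1285), nhr-32 (1966) and nhr-35 (2245), and the summits at all 6 lay 238 to 453 bp upstream. Chromatin regulator genes had 5 of 20 (25%, 11.2 to 46.9; autosomes 39.0%), with the bromodomain gene bet-2 at rank 284, the sirtuin gene sir-2.2 at 372, and the SET-domain genes set-20 at 2000 and set-6 at 2202. Histone genes had 3 of 5 (autosomes 12 of 76), the linker histones his-24 (2177) and hil-3 (2768) and the histone H3.3 gene his-71 (4788). Heterochronic and microRNA pathway genes, which time larval development, had 3 of 8 (autosomes 5 of 15), puf-9, lin-14 (2652) and the Argonaute gene alg-1 (4364). With windows of 250 and 1000 bp the nuclear hormone receptor list had 2 and 9 genes with a peak and the heterochronic list 1 and 6. The interval of the heterochronic list, 13.7% to 69.4%, holds the 13.8% of all X coding genes. That of the histone list, 23.1% to 88.2%, lies above it. In replicate 1 the peak at nhr-167 ranked 11396, and in replicate 2 that at his-71 ranked 8590.

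Muscle, neuronal and signalling genes with a peak had summits of rank 502 to 5525. Body wall muscle genes had 4 of 16 (25%; autosomes 28.6%), act-4 (rank 1716), dim-1 (2136), unc-98 (4388) and the troponin T gene mup-2 (5525), the last with no region of replicate 1 within 100 bp. Neurotransmission genes had 3 of 16 (18.8%, autosomes 21.4%), syd-2 (1194), unc-18 (2314) and sad-1 (4278). Potassium channel genes had 2 of 20 (10%, autosomes 12%), unc-58 (3988) and slo-2 (4498). Axon guidance genes had 2 of 19 (10.5%, autosomes 14.3%), unc-115 (1844) and egl-17 (2457). Both of these shares lay near the 13.8% of all X coding genes. The unc-58 summit lay 441 bp after its 5′ end and 63 bp after that of a tRNA gene. The egl-17 summit lay 179 bp after its 5′ end and 14 bp upstream of that of a tRNA gene. The Ras list had 1 of 10 (autosomes 31.8%), sli-1 (5469). Ubiquitin conjugation genes had 2 of 8 (autosomes 46.2%), ubc-21 and ubc-22, which share a single summit (3041). Of 29 ligand-gated channel genes only glr-6 was called (3.45%, autosomes 5%), through the summit it shares with asg-2.

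Several gene lists had no X member with a peak. None of 37 neuropeptide genes had one, which allows a share of up to 8.11%, and the autosomes had 1 of 107. None of 34 chemoreceptor genes had one (up to 8.82%; autosomes 13 of 1331) and none of 30 cuticle collagen genes (up to 10%; autosomes 7 of 142). The same held for 17 F-box and MATH-BTB, 14 detoxification, 6 innexin, 5 vitellogenin, 5 Wnt and TGF-beta, 4 tubulin and 3 C-type lectin genes, which are too few for a narrow limit. With a window of 1000 bp 3 of the 5 Wnt and TGF-beta genes and 2 of the 17 F-box and MATH-BTB genes had a peak, as did 1 gene each of the neuropeptide, collagen, detoxification and innexin lists. The chemoreceptor, vitellogenin, tubulin and C-type lectin lists had none at that window either.

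Among non-coding genes, those for tRNAs lay near the summits of many X peaks. Of 276 tRNA genes on X 95 (34.4%, 29.1 to 40.2) had a summit within 500 bp, against 107 of 336 on the autosomes (31.8%) and a background of 33.0%. The replicates gave 32.4% ± 1.79 (SD, n = 2). Counted by peaks, 79 X peaks (8.09%) lay near a tRNA gene, against 100 autosomal peaks (2.12%). The 276 X tRNA genes lie on 17.7 Mb and the 336 autosomal ones on 82.6 Mb, so the counts by peaks differ in gene density. The strongest summit near each of the 95 genes lay a median of 9 bp after its 5′ end, and 71 lay within 100 bp. These peaks had a median percentile of 36.3. The best rank, 167, was that of the peak with 2 copies of the MEX part upstream of xol-1, whose summit lay 317 bp after the 5′ end of the tRNA gene. The next was rank 580, at C28G1.2 and sec-15, whose summit lay 114 bp upstream of the tRNA gene.

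**Figure D5:**
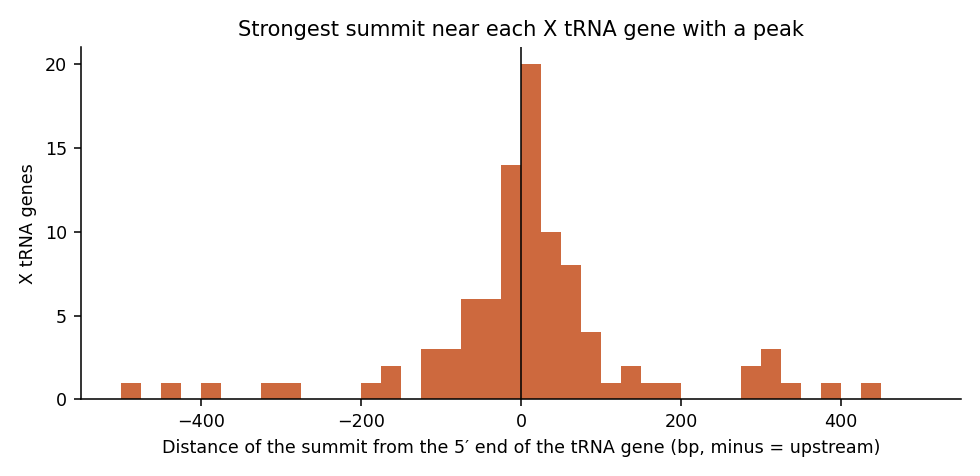
Number of X tRNA genes by the distance in bp of their strongest summit from the 5′ end of the gene, for the 95 genes with a summit within 500 bp. The bars peak at 0 to 25 bp after the 5′ end and 71 genes lie within 100 bp.

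The B box, an inner promoter box of tRNA genes, is seen in the sequence of such peaks. Each line is 201 bases of the plus strand centred on the summit, with the B box part GGTTCGA in capitals on either strand (TCGAACC when read on the plus strand).
Rank 888, chrX:9743593-9743793, beside the tRNA genes WBGene00014333 and WBGene00014334: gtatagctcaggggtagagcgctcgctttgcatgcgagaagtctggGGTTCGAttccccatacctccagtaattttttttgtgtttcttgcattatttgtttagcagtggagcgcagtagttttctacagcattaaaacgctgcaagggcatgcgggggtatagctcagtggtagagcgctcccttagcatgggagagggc
Rank 954, chrX:14063942-14064142, beside the tRNA gene WBGene00014275: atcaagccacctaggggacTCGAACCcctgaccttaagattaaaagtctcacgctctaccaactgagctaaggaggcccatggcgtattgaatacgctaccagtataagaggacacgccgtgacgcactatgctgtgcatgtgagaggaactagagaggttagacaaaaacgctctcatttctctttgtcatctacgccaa

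GGTTCGA lay within 100 bp of 5.83% of X summits and 2.08% of autosomal ones, and windows along X held it in 1.32%. Of the 79 X peaks near a tRNA gene 43 (54.4%) held it, and of the 898 others 14 (1.56%). Since the B box lies inside tRNA genes, windows near such genes often take it in. This contrast thus follows largely from how the peaks were grouped. Many tRNA genes have near-identical copies, and the treatment of multiply matching reads is not stated, so a peak at a single copy is uncertain.

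For microRNA, small nucleolar RNA and lincRNA genes the background lay within the interval of X. MicroRNA genes had 7 of 74 (9.46%, 4.66 to 18.3; background 13.4%), with the strongest summit, rank 194, 315 bp upstream of mir-54 in the cluster that also holds mir-55 and mir-56. Small nucleolar RNA genes had 6 of 33 (18.2%, 8.61 to 34.4; background 32.7%), of which D2021.6 shares the summit of sdha-1. By peaks, 0.614% of X peaks lay near a small nucleolar RNA gene and 2.31% of autosomal peaks, and for microRNA genes it was 0.512% and 0.615%. Of 38 lincRNA genes 7 had a peak (18.4%, 9.22 to 33.4; background 13.4%), led by linc-78. Of 2520 genes of the annotation's general ncRNA class 296 had a peak (11.7%, 10.5 to 13.1, background 14.3%). By peaks, 221 X peaks (22.6%) lay near such a gene, against 13.9% of autosomal peaks. Over all chromosomes this class has 7764 genes.

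The other motifs searched, each on both strands within 100 bp of the summit, gave a mixed picture. GAGAG, the GAGA repeat, lay at 65.0% of X and 62.4% of autosomal peaks, against 22.2% of the X windows 400 bp away. It was at 69.8% of X promoter peaks and 52.4% of autosomal promoter peaks, but at 62.0% and 73.7% of the peaks elsewhere. CTGCGTC, a sequence reported at promoters of broadly expressed worm genes, lay at 11.1% of X peaks, below the 17.7% to 20.1% of single autosomes, with 10.2% ± 0.722 in the replicates (SD, n = 2). TTTCAG, which resembles the 3′ splice site, lay at 11.6% of X peaks, also below the lowest autosome (17.0%). It was rarer at summits than 400 bp away, where 32.4% of X windows and 39.4% of autosomal windows held it.

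The E-box CACGTG (9.01% of X peaks, 7.15% of autosomal) and the AP-1 letters TGACTCA (3.68% and 2.52%) differed less. So did CCAAT (29.4% and 29.8%) and the GATA letters TGATAA (10.1% and 11.0%). E-box, CCAAT and GATA shares lay inside the range of the single autosomes. The AP-1 share lay above their highest, 3.25%. The windows 400 bp away held the AP-1 letters in 3.17% of cases on X and 1.95% on the autosomes. TGATAA was rarer at summits than 400 bp away, where 20.5% of X and 17.6% of autosomal windows held it. In base composition the 201 bp around X summits had a median GC content of 43.3%, against 40.8% on the autosomes, and X promoter peaks had 44.3%, against 38.8% to 39.3% on single autosomes. The whole X has 35.2% GC and the autosomes 35.5%.

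X peaks were found in both replicates less often than autosomal peaks. Within 100 bp, 664 of the 977 X summits (68.0%, 65.0 to 70.8) had a summit among the 5692 highest of each replicate, against 76.9% on the autosomes (74.7% to 79.0%). In the full lists of 30000 regions it was 90.8% on X and 95.1% on the autosomes. Among peaks in the upper 2846 of the list the shares were 97.1% on X and 98.6% on the autosomes, and below it 46.6% and 53.7%. All of the highest 100 X peaks were found in both. By class it was 78.1% for X promoter peaks, 64.7% for intergenic and 56.1% for intron peaks. The optimal list was itself made from both replicates, so these shares are no independent check. Across the 887 X peaks found in both full lists, signal in the replicates had a Spearman's rho of 0.726, against 0.808 on the autosomes, as a description over peaks that share libraries.

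C34F6.9 itself (WBGene00007943) lies on X, at 11218128 to 11222647 on the minus strand. No optimal peak and no pooled region had its summit in the gene or within 5000 bp of it. The nearest summit lay 19032 bp away, at 11241679, with a signal of 124 (rank 2531).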

How the data were processed

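ChIP-seq peak lists of 2 biological replicates of whole L2 larvae were used. The authors deposited, per replicate and pooled, 30000 regions with a control library as background, and an optimal list made by IDR thresholding, per the labels and file names. The authors' signal is a score on no scale shared between lists, and was used only to rank, filter and describe the peaks of that list. In the optimal list the deposited −log10 q-values all stood at a ceiling of 4.07 and ranked nothing. That list was the 5692 pooled regions of highest signal. The aligner, the peak caller and the treatment of multiply matching reads were not given in the sources used here. Without read counts in the lists, depth is unknown. The lists hold the 2 replicates as 1 group, whose spread may be biological or technical.

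Positions are 1-based in ce11, and the ce10 list served only for the X share. Genes came from Ensembl release 115, and the RefSeq copy of WBcel235 gave the sequence. Location classes were assigned in the order promoter (within 500 bp of a coding 5′ end), exon, intron, after a 3′ end (up to 500 bp), intergenic. Only protein-coding genes counted for the classes, so a summit inside a non-coding gene can be called intergenic. Each replicate alone means its 5692 regions of highest signal, and peaks were matched within 100 bp. No test over regions was run; shares carry 95% Wilson intervals, and a count of 0 allows up to 3 counts. The assignment of summits to 5′ ends was tested on simulated positions, placed at known distances from 5′ ends on X. Alternatives were each replicate alone, the 2846 highest peaks, windows of 250 and 1000 bp, 5′ ends of every biotype, merged peaks (943 X regions) and other matching distances.

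The members, the 29 gene lists and the 9 motifs were chosen with earlier results of these data known. Genes named were those nearest the 30 highest X peaks, up to 4 members with a peak of each list by signal, genes at the densest windows and widest gaps, and C34F6.9. The non-coding genes and further genes of gaps and windows were chosen after their values were seen, as were the peaks whose sequences are shown among the strongest. Scripts ran in Python 3.11.15 with matplotlib 3.10.9, scipy 1.17.1, pandas 2.3.3 and numpy 2.4.6.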

Additional observations from a re-analysis of the deposited data

How the results depend on the processing

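With a single replicate alone, the X share of peaks ran from 17.0% to 17.6%, X peaks per Mb from 54.7 to 56.4, the promoter share from 38.2% to 39.0%, the intergenic share from 38.1% to 38.9%, the intron share from 15.7% to 16.9%, the median percentile from 42.3 to 42.7, the median spacing from 7844 to 8167 bp, the share of X coding genes with a peak from 13.99% to 14.02% and that of X tRNA genes from 31.2% to 33.7%. In the 2846 peaks of highest signal these values were, in the same order, 14.5%, 23.3 per Mb, 48.7%, 34.4%, 11.4%, percentile 42.6, 24919.5 bp, 7.98% and 12.0%. With windows of 250 and 1000 bp the promoter share was 25.1% and 52.8%, the intergenic share 49.0% and 27.2%, the intron share 20.1% and 12.8%, the share of coding genes 9.12% and 18.3% and that of tRNA genes 30.1% and 40.2%. The promoter share was 59.0% with 5′ ends of every biotype. With overlapping peaks merged, X had 53.2 regions per Mb, a median spacing of 8779 bp and a median percentile of 41.6. Among promoter peaks ranked by themselves the X median was percentile 43.1. Peaks found in both replicates made up 55.4% within 50 bp, 74.5% within 200 bp and 90.8% with the full lists. The ce10 list gave an X share of 17.2%.

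Some alternatives were chosen after seeing the data. Without the X peaks that hold CGCAGGG the median percentile was 41.4, the promoter share 38.7% and the intergenic share 37.9%. Within 50 bp of the summit 21 X peaks and 40 autosomal peaks held CGCAGGG, and within 200 bp 41 and 86 did, with 6 and 9 of the X peaks among the highest 20 and 1 autosomal peak in each case. The overlapping letters GCGCAGG lay at 7 of the highest 20 X peaks and GCAGGGA at 9, and CGAAGGG, which differs by a letter, lay at 7, against 0 of the highest 20 autosomal peaks for each.

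No paired analysis was possible because both replicates belong to 1 group. Depth, the control library and mappability were not analysed here, and their part in the lower rank and lower replicate overlap of X peaks was not tested. The 2 replicates limit every spread to 1 degree of freedom.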
